A study of Bos taurus with 22 samples.

Results

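Transcripts of 10 genes of ERBB and insulin receptor signaling through phosphoinositide 3-kinase (PI3K) were measured by RNA-seq in the jejunal mucosa of Holstein steers. The genes were EGFR, ERBB2 and ERBB3 (receptors of the epidermal growth factor family), INSR and IGF1R (the insulin receptor and the receptor of insulin-like growth factor 1), IRS1 and IRS2 (substrates of those receptors), PIK3CA (the catalytic alpha subunit of PI3K), and the kinases PDPK1 and GSK3B. They were chosen by name from the 27570 genes of the count table. Of these, 9 were found by symbol, and GSK3B, which the table lists as GSK3beta, was found by its gene identifier. All 10 genes were among the 13928 with enough counts to be tested between GLP-2 and BSA.

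Samples came from 22 Holstein steers of 220 to 294.1 kg of body weight (BW), in 6 blocks of BW. Every steer, control steers included, received raw corn starch into the abomasum during 7 d, at 3.94 g daily per kg of BW. Control steers (n = 5) received water with the starch and subcutaneous BSA vehicle, GLP-2 steers (n = 5) water and glucagon-like peptide 2 (GLP-2, 100 µg daily per kg of BW), casein steers (n = 6) sodium caseinate (1.30 g daily per kg of BW) and BSA vehicle, and casein + GLP-2 steers (n = 6) both casein and GLP-2. The study asked how the casein infusion and the GLP-2 injection each act on jejunal transcripts, so 11 GLP-2-injected steers were compared with 11 BSA-injected steers, and 12 casein-infused steers with 10 water-infused steers.

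Receptors of the ERBB family and the insulin receptor family are tyrosine kinases of the cell surface. When a ligand binds, the receptor, or for insulin and IGF-1 mostly a docked IRS protein, recruits PI3K, which makes a membrane lipid that brings PDPK1 and its substrate AKT together, and active AKT switches off GSK3B. In the intestinal epithelium these receptors are known for their part in cell growth, survival and renewal, and they are known to act partly through protein phosphorylation, which transcript counts do not measure.

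Libraries held 8809666 to 28447810 counts on genes (median 12028560.5). Epithelial and villus enterocyte markers had counts in every steer. Control replicates 1, 3 and 5 and casein replicate 3 stood apart, with B cell follicle scores (mean log2 CPM of 14 markers, where CPM is a normalized count relative to library size) of 5.76 to 6.68 against at most 3.42 in the other 18 steers. Casein replicate 3 and control replicates 5 and 3 also had the lowest epithelial scores of all steers (6.54, 6.70 and 6.85), while control replicate 1 had 7.40. Settings below that use either score or leave out these libraries are therefore not separate checks. The follicle score was lower with GLP-2 (0.894 ± 0.615, SD, n = 11) than with BSA (3.50 ± 2.31, n = 11), with an adjusted p of 0.00847 over 11 measures in a 2-sided permutation test. The epithelial score of 10 markers was greater with GLP-2 (7.76 ± 0.166) than with BSA (7.32 ± 0.427; adjusted permutation p = 0.00913, n = 11), as was the villus enterocyte score of 17 markers (9.85 ± 0.668 against 8.39 ± 1.46; adjusted permutation p = 0.0200, n = 11). Summed villus enterocyte markers ranged from 19363 to 111838 CPM with GLP-2 and from 2435 to 75253 CPM with BSA, and summed follicle markers from 36.8 to 95.5 CPM and from 56.5 to 2381 CPM. The scores of proliferation (GLP-2 minus BSA -0.715, adjusted permutation p = 0.0709, n = 11), crypt stem cells (-0.508, 0.388), T cells (-0.0788, 0.651), macrophages (0.190, 0.445), smooth muscle (-0.740, 0.388) and stroma (-0.857, 0.388) did not pass this test. Of the follicle markers, PAX5 was at 0 in 9 steers and FCRLA in 4. In bulk mucosa, fewer cells of a type cannot be told apart from less RNA per cell.

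Transcripts of EGFR, ERBB2, ERBB3 and INSR were higher with exogenous GLP-2 than with BSA. By the quasi-likelihood test of edgeR, adjusted over all genes, these 4 of the 10 genes were past the threshold of 0.05, and all 4 were higher with GLP-2. Over all genes tested, 13.5% were past it, 5.13% higher and 8.37% lower, and 34.6% had an unadjusted p of at most 0.05, as had 7 of the 10 genes. The share of all genes past the adjusted threshold moved with single steers, from 4.52% without casein + GLP-2 replicate 3 to 25% without control replicate 2, and was 21.6% in DESeq2. PDPK1 and GSK3B tended to be higher (adjusted p up to 0.10), and IGF1R, IRS1, IRS2 and PIK3CA did not pass the test. The log2 fold change was above 0 for 9 of the 10 genes with a median of 0.83, against a median of 0.01 over all genes tested, of which 50.7% were above 0. The study had already reported ERBB2, ERBB3, INSR, IRS2, PDPK1 and GSK3B as upregulated by GLP-2 in this series, using DESeq2 and including a GLP-2 steer not analysed here. The counts and the median of the 10 genes, set against all genes, are therefore a description and no independent support.

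**Figure D1:**
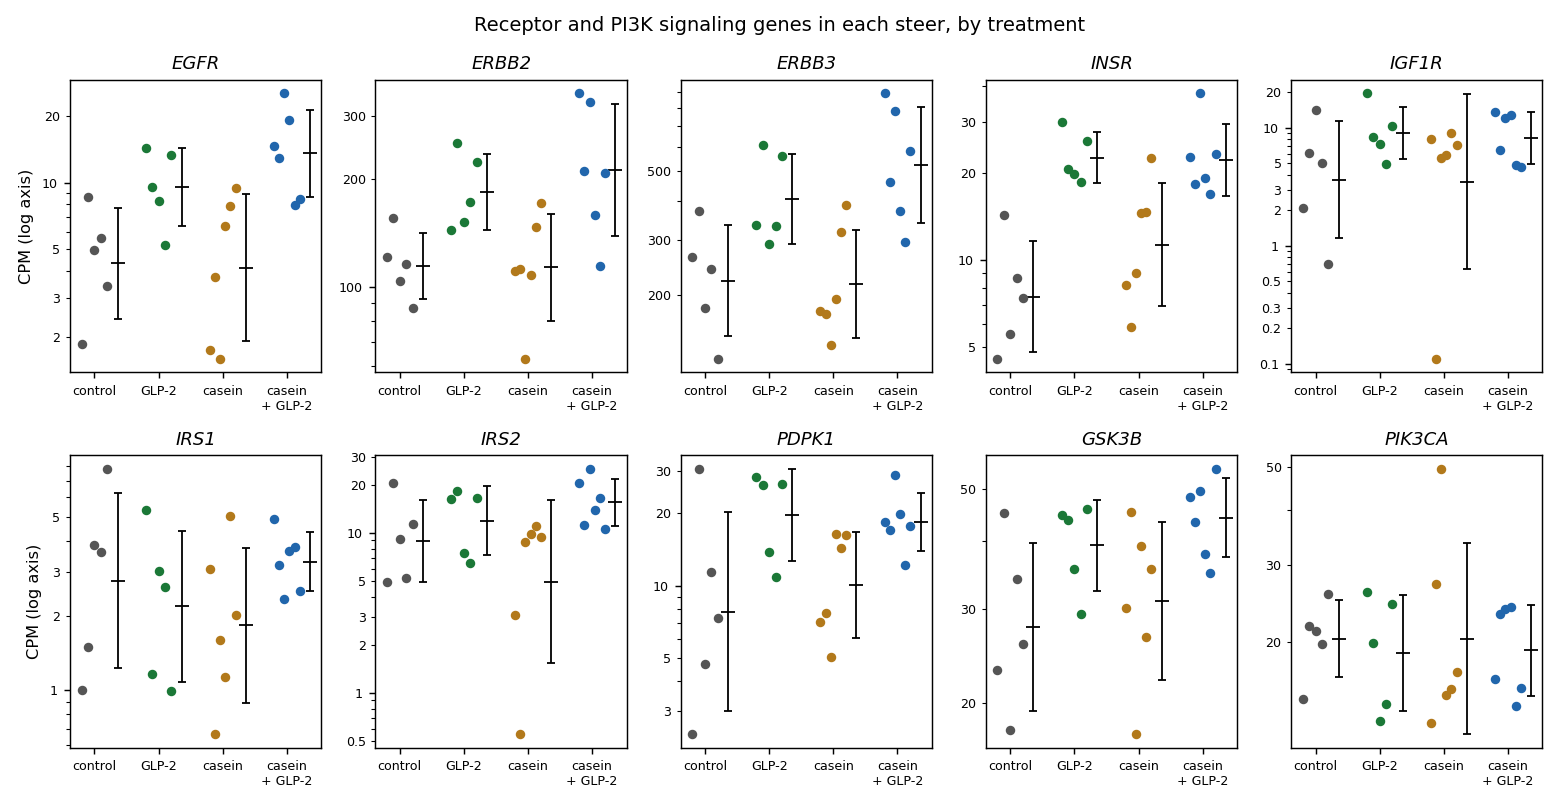
Each panel shows 1 gene, with each point the TMM-normalized CPM of 1 steer on a log axis and, beside the points of each treatment, the mean of log CPM with 1 SD. The means of EGFR, ERBB2, ERBB3 and INSR sit higher in both GLP-2 treatments than in the matching BSA treatments. Their points overlap, except those of INSR between GLP-2 and control, and the points of PIK3CA and IRS1 overlap between treatments.

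EGFR encodes the receptor of epidermal growth factor and of related ligands. It was at 5.24, 12.9 and 25.5 CPM (lowest, median and highest of 11) in GLP-2-injected steers and at 1.60, 4.94 and 9.50 CPM in BSA-injected steers. The groups overlapped, with 7 of the 11 GLP-2-injected steers above every BSA-injected steer. The fold change was 2.55 (log2 1.35 ± 0.321 SE, adjusted p = 0.0214, edgeR).

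ERBB2 has no known ligand of its own and serves as the partner in dimers with the other ERBB receptors. Its levels were 114, 208 and 349 CPM with GLP-2 and 62.7, 112 and 172 CPM with BSA (lowest, median and highest of 11). Again 7 of the 11 GLP-2-injected steers were above all BSA-injected steers, and the fold change was 1.81 (log2 0.86 ± 0.195 SE, adjusted p = 0.0202, edgeR).

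ERBB3 binds neuregulins, has weak kinase activity, and carries many docking sites for PI3K. With GLP-2 it was at 293, 460.2 and 892 CPM, and with BSA at 125, 194 and 391 CPM (lowest, median and highest of 11). Of the 11 GLP-2-injected steers, 6 were above every BSA-injected steer, and of the 11 BSA-injected steers, 8 were below every GLP-2-injected steer. The fold change was 2.17 (log2 1.12 ± 0.240 SE, adjusted p = 0.0189, edgeR).

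INSR encodes the insulin receptor. Its lowest, median and highest levels were 16.9, 20.6 and 37.7 CPM with GLP-2 and 4.56, 8.67 and 22.6 CPM with BSA (n = 11 each). These 2 groups overlapped because of a single steer, since 10 of the 11 BSA-injected steers were below every GLP-2-injected steer and casein replicate 6 was at 22.6 CPM. The fold change was 2.21 (log2 1.14 ± 0.234 SE, adjusted p = 0.0189, edgeR).

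Leaving out any 1 steer kept the 4 genes past the threshold in 22 of 22 edgeR fits (highest adjusted p 0.0464), and with the BW block in the fit each had an adjusted p of 0.0482. The calls of all 4 genes were lost without the 4 libraries high in follicle markers (log2 fold changes 1.03 for EGFR, 0.69 for ERBB2, 0.92 for ERBB3 and 0.86 for INSR, adjusted p = 0.320, edgeR), with the follicle score as a covariate (0.70, 0.44, 0.63 and 0.61, adjusted p = 1.00), with the epithelial score as a covariate (0.93, 0.48, 0.70 and 0.90, adjusted p of 0.472 to 0.478), and with the block together with a gene length correction (1.34, 0.71, 0.96 and 1.08, adjusted p of 0.0531 to 0.0569). In each of these 4 edgeR settings, 0 of all genes tested passed the threshold.

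**Figure D2:**
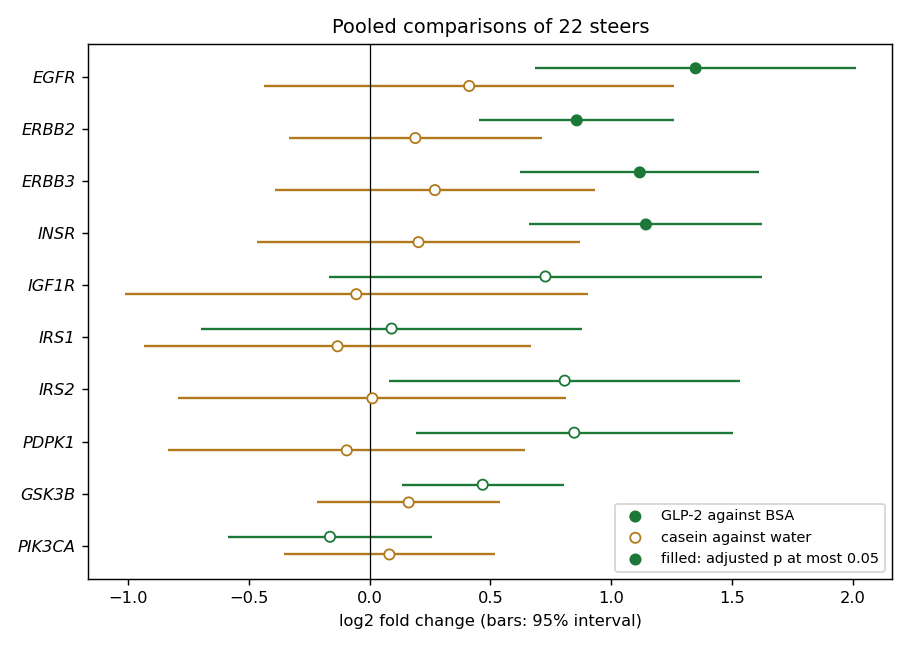
Points are log2 fold changes of the 10 genes between GLP-2 and BSA (green) and between casein and water (brown) from edgeR fits to all genes, with bars of the 95% interval and filled points for an adjusted p of at most 0.05. Changes with GLP-2 run from -0.16 (PIK3CA) to 1.35 (EGFR), with 4 filled points, and changes with casein from -0.13 (IRS1) to 0.41 (EGFR), with none filled.

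IGF1R encodes the receptor closest to the insulin receptor in sequence and signaling. Its levels were 4.70, 8.29 and 19.7 CPM with GLP-2 and 0.110, 5.83 and 14.3 CPM with BSA (lowest, median and highest of 11). The groups overlapped widely, and the log2 fold change of 0.73 ± 0.433 SE did not pass the edgeR test (adjusted p = 0.233). The lowest value came from casein replicate 2, with 1 count, and control replicate 5 followed with 9 counts and 0.698 CPM.

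IRS1 and IRS2 encode the docking proteins through which the insulin and IGF-1 receptors reach PI3K. IRS1 was at 0.992, 3.04 and 5.35 CPM with GLP-2 and 0.663, 2.00 and 7.83 CPM with BSA (lowest, median and highest of 11). No GLP-2-injected steer was above all BSA-injected steers, and the log2 fold change was 0.09 ± 0.382 SE (adjusted p = 0.881, edgeR). The 95% interval of this difference ran from -0.70 to 0.88 on the log2 scale, so a change of the size seen in ERBB2 could not be told apart from none for IRS1.

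IRS2 was at 6.50, 16.4 and 25.3 CPM with GLP-2 and at 0.552, 9.18 and 20.6 CPM with BSA (lowest, median and highest of 11). The 2 extremes with BSA were casein replicate 2, with 5 counts, and control replicate 2. The log2 fold change was 0.81 ± 0.352 SE, with an unadjusted p of 0.0310 and an adjusted p of 0.109 in edgeR. In DESeq2 it was 0.80, with an adjusted p of 0.0761. IRS2, which the study reported as upregulated, was thus not called here by either test with all steers.

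PIK3CA was the 1 gene of the 10 with a log2 fold change below 0 (-0.16 ± 0.205 SE, adjusted p = 0.582, edgeR). It was at 13.3, 19.9 and 25.9 CPM with GLP-2 and at 13.1, 19.8 and 49.5 CPM with BSA (lowest, median and highest of 11). The highest value was that of casein replicate 3, and without that steer the log2 fold change was 0.01. The 95% interval with all steers ran from -0.59 to 0.26.

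PDPK1 encodes the kinase that phosphorylates AKT in its activation loop. It was at 10.9, 18.5 and 29.0 CPM with GLP-2 and at 2.41, 7.73 and 30.7 CPM with BSA (lowest, median and highest of 11). The highest value of all belonged to a control steer, replicate 2, although 6 of the 11 BSA-injected steers were below every GLP-2-injected steer. The log2 fold change was 0.85 ± 0.318 SE, a tendency in edgeR (adjusted p = 0.0701) that was 1.12 and past the threshold without control replicate 2. PDPK1 also passed in DESeq2 (log2 0.84, adjusted p = 0.0421) and in limma on log2(FPKM + 1) (log2 0.90, adjusted p = 0.0359).

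GSK3B encodes the kinase that phosphorylates glycogen synthase and beta-catenin and that AKT inhibits. Its levels were 29.3, 43.8 and 54.6 CPM with GLP-2 and 17.5, 30.1 and 45.4 CPM with BSA (lowest, median and highest of 11). The fold change was the smallest of the 6 genes with an adjusted p under 0.10, at 1.38 (log2 0.47 ± 0.163 SE, adjusted p = 0.0550, edgeR). With the BW block in the edgeR fit it passed the threshold (log2 0.53, adjusted p = 0.0494), as it did in 6 of the 22 fits that left out 1 steer, in DESeq2 (log2 0.46, adjusted p = 0.0370) and in limma on log2(FPKM + 1) (log2 0.47, adjusted p = 0.0450). With the follicle score as a covariate the log2 fold change was 0.02 for GSK3B and 0.05 for PDPK1, and without the 4 libraries high in follicle markers it was 0.22 and 0.43. The part of the follicle score in these differences was not tested further.

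No change with casein infusion passed the test in the 10 genes. Between 12 casein-infused and 10 water-infused steers, 0 of the 10 passed the adjusted threshold in edgeR, where 0% of all 14096 genes tested did. Without adjustment the counts were 0 of the 10 genes and 474 of all genes (3.36%). A DESeq2 test also called 0 of the 10, and 0% of all genes. The log2 fold changes ran from -0.13 (IRS1) to 0.41 (EGFR), with adjusted p from 0.994 to 1.00. Intervals were wide for several genes, such as -0.44 to 1.26 for EGFR and -0.34 to 0.71 for ERBB2 at 95%. Among the signs of these small changes, those of IGF1R, IRS1, IRS2, PDPK1 and PIK3CA turned under other settings, and so did those of EGFR, ERBB2, ERBB3 and INSR in single settings that handle the follicle markers.

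The GLP-2 injection was then compared within each infusion, in 1 edgeR model of the 4 treatments and 15086 genes. GLP-2 was compared with control (n = 5 each) and casein + GLP-2 with casein (n = 6 each). Control replicates 1, 3 and 5 and casein replicate 3 were the libraries high in follicle markers. In neither comparison did any of the 10 genes, or any gene, pass the adjusted threshold (0%). Without adjustment, 4 of the 10 genes (EGFR, ERBB2, ERBB3 and INSR) had p of at most 0.05 between GLP-2 and control, where 13.9% of all genes did, and 6 of the 10 (these 4, IRS2 and GSK3B) between casein + GLP-2 and casein, where 24.1% did. DESeq2 called 1 of the 10 genes in the first comparison, where it called 1.92% of all genes, and 3 in the second, where it called 5.91%.

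INSR showed the widest separation of GLP-2 from control. Control replicates 1 to 5 had 4.56, 14.3, 5.57, 8.67 and 7.37 CPM, and GLP-2 replicates 1, 3, 4, 5 and 6 had 30.0, 20.6, 19.9, 18.5 and 25.8 CPM. Every GLP-2 steer was above every control steer, which held for 0.888% of the genes tested. Control replicates 1, 3 and 5, the lowest control steers for INSR, were libraries high in follicle markers. Their part in this separation was not tested. The fold change was 2.84 (log2 1.51 ± 0.343 SE), with an adjusted p of 0.131 in edgeR. With casein, the lowest, median and highest levels of INSR were 5.85, 11.8 and 22.6 CPM without GLP-2 and 16.9, 21 and 37.7 CPM with it, and the log2 fold change was 0.89 ± 0.308 SE (adjusted p = 0.131, edgeR).

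EGFR was at 1.85, 8.65, 4.94, 5.63 and 3.41 CPM in control replicates 1 to 5, and at 14.4, 9.61, 8.26, 5.24 and 13.3 CPM in GLP-2 replicates 1, 3, 4, 5 and 6. GLP-2 replicates 4 and 5 lay within the control range, and the log2 fold change was 1.06 ± 0.482 SE (adjusted p = 0.326, edgeR). In casein steers it was at 1.60, 5.08 and 9.50 CPM and in casein + GLP-2 steers at 7.96, 13.8 and 25.5 CPM (lowest, median and highest of 6), with a log2 fold change of 1.53 ± 0.444 SE (adjusted p = 0.118, edgeR).

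For ERBB2 and ERBB3 the mean was higher with GLP-2 in both infusions, without a call after adjustment. ERBB2 was at 121, 156, 103, 115 and 87.1 CPM in control replicates 1 to 5 and at 144, 253, 151, 172 and 224 CPM in GLP-2 replicates 1, 3, 4, 5 and 6, and ERBB3 at 265, 373, 182, 242 and 125 CPM and at 337, 609, 293, 333 and 559.9 CPM. Control replicate 2 was the highest control steer for both genes. The log2 fold changes between GLP-2 and control were 0.70 ± 0.285 SE for ERBB2 and 0.85 ± 0.349 SE for ERBB3 (adjusted p of 0.287 and 0.290, edgeR), and between casein + GLP-2 and casein they were 0.94 ± 0.261 and 1.28 ± 0.322 (adjusted p = 0.118 for both). In casein + GLP-2 steers ERBB3 ranged from 296 to 892 CPM, and in casein steers from 138 to 391 CPM.

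The other pairwise comparisons and the interaction added no call. Casein against control and casein + GLP-2 against GLP-2, which reuse the steers above, had 0 of the 10 genes past the adjusted threshold in edgeR and 0 without adjustment, where 5.66% and 2.64% of all genes passed without adjustment. For the casein × GLP-2 interaction, 0 of the 10 genes passed either way (4.28% of all genes without adjustment). Estimates of the interaction ran from -0.62 ± 0.455 SE for INSR to 1.02 ± 0.777 SE for IRS1 on the log2 scale (adjusted p of 0.996, edgeR), and their 95% intervals were -1.56 to 0.32 and -0.59 to 2.63. The opposite signs of IRS1 between infusions, -0.43 ± 0.572 SE with water and 0.58 ± 0.525 SE with casein, were therefore not shown to differ.

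Steers of the same BW block were set side by side, which gave 4 pairs with water and 6 with casein. INSR was higher with GLP-2 in 10 of the 10 pairs, with log2 differences from 0.04 to 2.68. EGFR, ERBB2, ERBB3, IRS2 and PDPK1 were higher in 9 of the 10 pairs each, GSK3B in 8 and IGF1R in 7. IRS1 was higher in 6 pairs, of which 1 was with water, and PIK3CA in 3. These pairs are the samples of the comparison above, ordered in another way, and the same count over all genes was not made. The BSA-injected steers of water blocks 1, 3 and 5 and of casein block 3 were the libraries high in follicle markers. Their INSR differences were 2.68, 1.86, 1.31 and 2.05, and those of the other pairs ran from 0.04 to 1.62. Control replicate 2, the highest control steer for INSR, is in no pair, since its block had no GLP-2 steer with water.

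**Figure D3:**
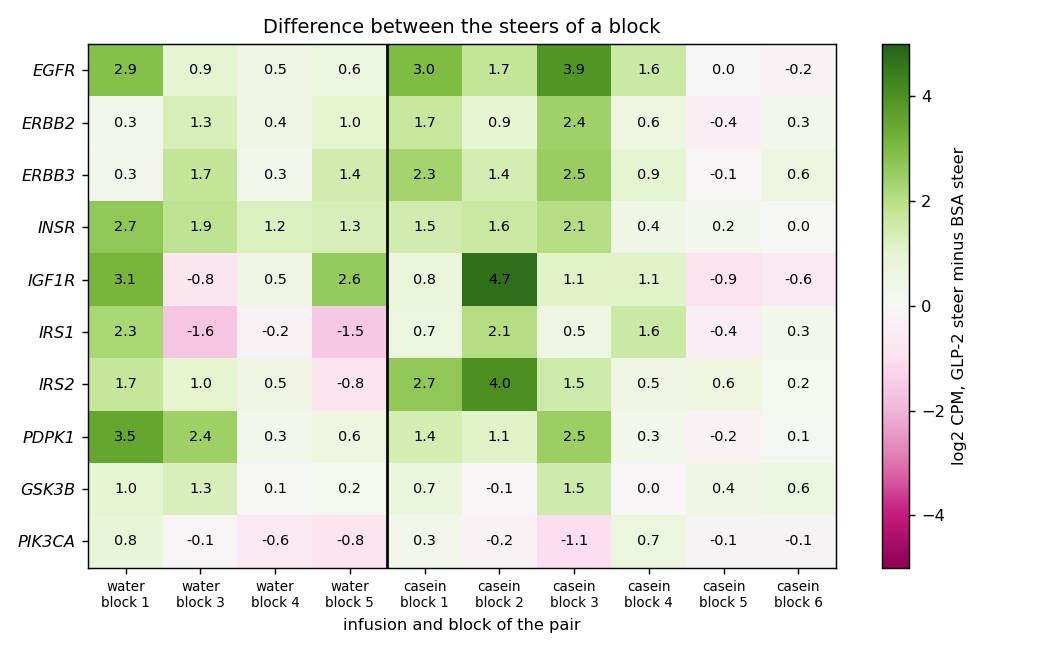
Each cell is the log2 CPM of the GLP-2-injected steer minus that of the BSA-injected steer of the same BW block and infusion, by gene (vertical axis) and pair (horizontal axis, 4 pairs with water and 6 with casein), with green above 0 and pink below. All 10 cells of INSR are above 0, 9 of 10 are for EGFR, ERBB2 and ERBB3, and those of PIK3CA go both ways.

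Levels were compared between genes on the FPKM scale, which divides by gene length. ERBB3 was the most abundant, with a mean of 67.5 ± 39.0 FPKM (SD, n = 22), followed by ERBB2 with 26.5 ± 12.3, GSK3B with 14.7 ± 4.20, PDPK1 with 8.61 ± 4.68, PIK3CA with 5.4 ± 2.08, INSR with 3.45 ± 1.77, IRS2 with 2.81 ± 1.52, EGFR with 2.03 ± 1.37, IGF1R with 1.62 ± 0.998 and IRS1 with 0.830 ± 0.503. ERBB3 exceeded ERBB2 in 22 of 22 steers, ERBB2 exceeded GSK3B in 21, and GSK3B exceeded PDPK1 in 22. From PDPK1 to IGF1R, each gene exceeded the next in 14 to 17 of the 22 steers, and the SDs of neighbours overlapped. IGF1R exceeded IRS1 in 19 of 22 steers. The order by mean was not the same in every group, since in BSA-injected steers EGFR (1.15 FPKM) was below IGF1R (1.23 FPKM), and in control steers INSR (1.68 FPKM) was below IRS2 (2.48 FPKM).

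**Figure D4:**
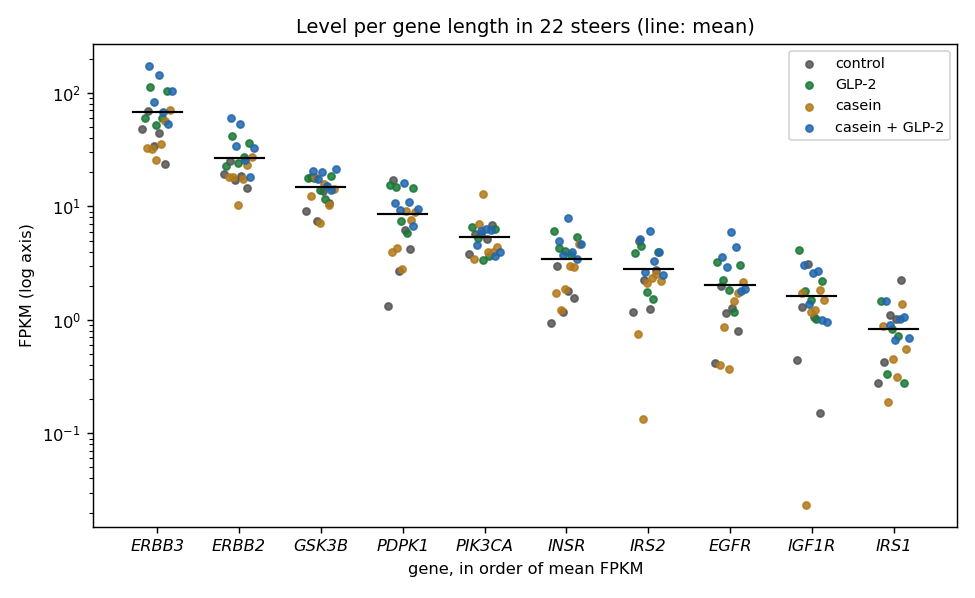
Points are FPKM of each of the 22 steers on a log axis, by gene in order of the mean, which a line marks, with colors for the 4 treatments. ERBB3 and ERBB2 lie above the other genes in nearly all steers, and the ranges from PDPK1 to IGF1R overlap.

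The 10 genes lie on 9 chromosomes of ARS-UCD1.2, with GSK3B (chr1:64646190-64861271, minus strand) and PIK3CA (chr1:87879574-87964195, minus strand) on the same one. EGFR is at chr22:905960-1121554 (minus strand), ERBB2 at chr19:40071906-40097898 (plus strand), ERBB3 at chr5:57215784-57236737 (minus strand) and INSR at chr7:16058828-16183062 (minus strand), and all are annotated as protein coding. Their counted lengths ran from 1798 bases (PDPK1) to 6146 bases (ERBB2), with a median of 4251 against 2434 over the genes tested. The slope of log2 CPM on log2 gene length across genes, a per-steer value that moves with RNA quality among other things, differed by 0.03 between GLP-2 and BSA (adjusted permutation p = 0.388, n = 11). With a gene length correction alone, the log2 fold changes between GLP-2 and BSA were 1.28 for EGFR, 0.75 for ERBB2, 1.03 for ERBB3 and 1.09 for INSR, and all 4 passed the edgeR test.

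Levels of the 4 genes that rose with GLP-2 also moved together across steers, as did those of other pairs. In the permutation test of Pearson r, 23 of all 45 pairs of the 10 genes were past an adjusted p of 0.05. GSK3B had r of 0.68 to 0.72 with the 4 genes. Of the 45 pairs among the 10 genes, ERBB2 and ERBB3 had the highest correlation of log2 CPM (Pearson r = 0.96, Spearman rho = 0.96, n = 22, each with a permutation p of 1e-05, the smallest that 100000 resamples give, adjusted to 0.000112 over the 45 pairs). It was 0.96 without the 2 steers farthest from the median of ERBB2 and 0.93 after treatment means were removed. Over the 6 pairs of EGFR, ERBB2, ERBB3 and INSR, r ran from 0.73 to 0.96, and from 0.51 to 0.93 after treatment means were removed. The permutation exchanged steers across treatments, so its p includes the difference with GLP-2 by which these 4 genes were picked. The values after removal of treatment means were not tested. PDPK1 followed EGFR (r = 0.86, within treatments 0.83) and INSR (r = 0.87, within treatments 0.84). PIK3CA and IRS1 followed none of the others, with r from -0.25 to 0.04 and from -0.16 to 0.34, and 0 of 9 pairs each past an adjusted p of 0.05 in the permutation test. The steers share their cell makeup in all genes, and the part of that makeup in these correlations was not tested.

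The gene most like each of the 4 was sought among 12453 other genes with a symbol, as a description without a test. For EGFR it was MGAT5 (r = 0.94 over 22 steers), a Golgi enzyme that branches N-glycans. For ERBB2 it was ITGB4 (r = 0.97), the integrin of hemidesmosomes, and for ERBB3 it was DSP (r = 0.95), a protein of the desmosome plaque. For INSR it was TET3 (r = 0.93, Spearman rho = 0.82), which oxidizes methylated cytosine. MGAT5, ITGB4, DSP and TET3 were themselves higher with GLP-2 (adjusted p of 0.0189 to 0.0366, edgeR). These r values therefore include the difference between GLP-2 and BSA, and no value within treatments was computed for them.

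Beyond the 10 genes, 136 genes of the same pathways and their known responses were listed, of which 134 were in the table and 120 were tested. Between GLP-2 and BSA, 2 of the 120 were higher and 6 lower at the adjusted threshold in edgeR, which is 8 of 120 where 13.5% of all genes passed. The median log2 fold change was 0.08. With the BW block in the fit, 3 genes of the lists were higher (the same 2 and RPS6KA3) and 0 were lower, where over all genes the higher calls went from 715 to 351 and the lower calls from 1166 to 338.

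On the ligand side, 4 of 11 ERBB ligands were tested and none passed the test. The smallest p was that of BTC, betacellulin (log2 fold change -0.78 ± 0.439 SE, adjusted p = 0.207, edgeR). TGFA, EPGN and NRG1, NRG2, NRG3 and NRG4 were below the count filter, as was the receptor ERBB4. EGF was not found by that name. Of 7 tested inhibitors of ERBB receptors none passed, with PTPRJ, a receptor phosphatase, nearest (1.07 ± 0.394 SE, adjusted p = 0.0658, edgeR).

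Of 9 tested genes for IGF ligands, their binding proteins and IGF2R, 1 rose and none fell, although 7 of the 9 had a log2 fold change below 0 (median -0.84). IGF2R, which carries IGF-2 and lysosomal enzymes into the cell, went from 83.0 ± 28.4 CPM with BSA to 150.3 ± 50.2 CPM with GLP-2 (SD, n = 11; log2 fold change 0.87 ± 0.200 SE, adjusted p = 0.0202, edgeR). INS had 0 counts in all steers. Of 13 tested adaptors and inhibitors of the receptors, 2 fell. SH2B2, an adaptor of the insulin receptor, decreased from 15.6 ± 9.91 to 7.82 ± 2.61 CPM (log2 -1.0 ± 0.286 SE, adjusted p = 0.0300, edgeR; 0.0582 with the block), and SOCS1, a suppressor of cytokine signaling, from 11.4 ± 4.80 to 6.80 ± 1.91 CPM (log2 -0.74 ± 0.231 SE, adjusted p = 0.0387; 0.0799 with the block).

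Among 12 other PI3K subunits, 1 rose. This was PIK3C2A, a class II PI3K of clathrin-coated membranes (38.8 ± 25.5 CPM with BSA and 77.4 ± 32.7 CPM with GLP-2, SD, n = 11; log2 fold change 1.01 ± 0.337 SE, adjusted p = 0.0491, edgeR), and the call was lost in 15 of the 22 fits that left out 1 steer. Of 8 phosphatases of phosphoinositides and AKT, INPP5D fell (log2 -0.58 ± 0.168 SE, adjusted p = 0.0306, edgeR; 0.0603 with the block). INPP5D is known as the phosphatase of blood cells.

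Downstream, none of the 21 tested AKT and mTOR kinases and regulators passed, and EIF4EBP2, an inhibitor of translation, was nearest (0.47 ± 0.167 SE, adjusted p = 0.0584, edgeR). Of 10 other AKT substrates, BAD, which promotes cell death, fell (-0.61 ± 0.186 SE, adjusted p = 0.0354, edgeR; 0.0642 with the block). None of 12 genes of the RAS-MAPK branch passed, and RPS6KA3, a ribosomal S6 kinase, was nearest (0.59 ± 0.215 SE, adjusted p = 0.0653, edgeR; 0.0494 with the block).

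Genes known to respond to FOXO factors, which AKT holds out of the nucleus, went both ways. Of 13 tested, 2 fell, BCL6 (log2 -0.88 ± 0.279 SE, adjusted p = 0.0412, edgeR; 0.0753 with the block) and KLF2 (-1.83 ± 0.496 SE, adjusted p = 0.0255; 0.0561 with the block), and 10 of the 13 had a log2 fold change above 0. BCL6 is also known from germinal center B cells and KLF2 from lymphocytes and endothelium. The follicle score above was lower with GLP-2 as well. With it as a covariate, the log2 fold changes of the 6 lower genes of the lists were -0.43 for SOCS1, -0.20 for KLF2, -0.16 for BAD, -0.07 for INPP5D, 0.05 for SH2B2 and 0.30 for BCL6. None of the 120 genes passed in that fit, where 0% of all genes did. The part of the follicle score in these differences was not tested. Of 11 tested genes that respond to MAPK signaling none passed, with SPRED2, an inhibitor of that pathway, nearest (0.75 ± 0.314 SE, adjusted p = 0.0988, edgeR). Between casein and water, 0 of the 120 genes passed the adjusted threshold in edgeR and 4 had an unadjusted p of at most 0.05, against 3.36% of all genes.

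**Figure D5:**
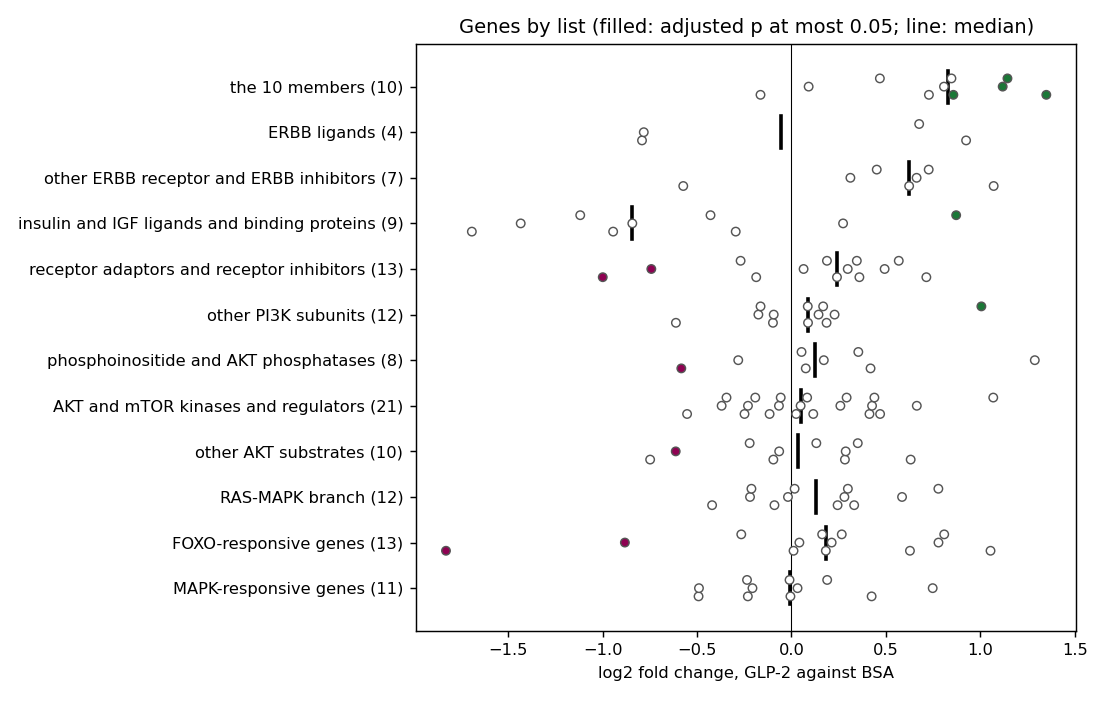
Points are log2 fold changes between GLP-2 and BSA of the tested genes of each list (number in brackets), with the 10 genes at the top, a short line at each median, and filled points for genes past the adjusted threshold of edgeR. Among the other lists the 2 filled points above 0 are IGF2R and PIK3C2A, and the 6 below 0 are SH2B2, SOCS1, INPP5D, BAD, BCL6 and KLF2.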

How the data were processed

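RNA-seq of jejunal mucosa covered 22 steers, with 5 in each water treatment and 6 in each casein treatment. Another steer of the GLP-2 treatment was not analysed here. Steers were grouped by the labels' treatments, with the block as replicate number. Libraries were strand-specific and selected for polyadenylated RNA. The authors filtered reads with fastp, aligned them to ARS-UCD1.2 with HISAT2 2.0.5, counted them on genes with featureCounts 1.5.0-p3 and deposited raw counts. StringTie 1.3.3b and DESeq2 1.20 are also named in the submitters' processing notes. The authors also deposited FPKM values, which are the counts divided by gene length and by a constant per library, and these served for levels between genes and as an alternative.

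The 10 genes and all lists were chosen with earlier results of these data known. Named genes beyond the 10 were those of the pathway and response lists that passed the GLP-2 against BSA test (for a list with none, that with the smallest p), and for each of the 10 past the threshold, the gene with a symbol most correlated with it. Of cell type markers (epithelial, villus enterocyte, crypt stem cell, proliferation, B cell follicle, T cell, macrophage, smooth muscle, stroma), only list values and genes at 0 are given.

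In R 4.3.3, genes were kept by filterByExpr (minimum count 10), normalized by TMM and tested with edgeR 4.0.16 (quasi-likelihood test, Benjamini-Hochberg adjustment over all genes tested, threshold 0.05, tendency up to 0.10). CPM follows TMM normalization, with 2 as the prior count on the log2 scale. Pooled comparisons had no covariate, and the 4 treatments were fitted in 1 model. A list score is the mean log2 CPM of the list, compared by a 2-sided permutation test (100000 resamples) adjusted over 11 measures. The procedure was tested on simulated data. No pair of libraries was identical. Each steer is 1 animal. Depth was 8809666 to 28447810 counts, so a gene of a few CPM rests on few counts.

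Alternatives were other size factors, filters, thresholds, covariates, the BW block, a gene length correction, a robust fit, limma 3.58.1 on log2(FPKM + 1) and log2(FPKM + 0.1), DESeq2 1.42.0, fits of only the treatments in a comparison, and the omission of each steer in turn. The block comes from the study's randomized complete block design. After removal of treatment means, 30 same-block pairs of steers had a mean correlation of 0.0331 (-0.464 to 0.387), and 151 other pairs of -0.00641.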

Additional observations from a re-analysis of the deposited data

Results flagged for a closer look

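The level of IGF1R in casein replicate 2 lay far from the other 5 casein steers. Its log2 CPM was -2.0 (0.110 CPM, 1 count), and the other casein steers had 5.50 to 8.98 CPM. The gap to the nearest steer was 0.866 of the range, against a critical value of 0.625 in Dixon's test for 6 values. Of the 40 gene and treatment groups tested this was the 1 that passed, and chance alone flags about 1 in 20 groups. The same steer had 5 counts of IRS2.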

How the results depend on the processing

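Of the 10 genes, 4 were called between GLP-2 and BSA in edgeR. The number was 0 with the replicate block and gene length correction, and with the follicle or the epithelial score as a covariate. It was also 0 without the 4 libraries high in follicle markers. In each of these settings 0% of all genes were called, and the cause was not tested. At an adjusted p of 0.01 the number was 0 as well, where the smallest adjusted p of all genes was 0.0171 in edgeR. It was 5 with the replicate block alone (4.95% of all genes called) and 6, with PDPK1 and GSK3B, in DESeq2 (21.6%), DESeq2 with the block (23.1%) and limma with FPKM + 1 (15%) and + 0.1 (14.2%). Leaving out 1 steer gave 4 to 7, with 7 without control replicate 2 (25% of all genes called), where IRS2, PDPK1 and GSK3B joined. GLP-2 against control gave 1 with the DESeq2 Wald test (1.92% of all genes called) and 1 with DESeq2 and the block (1.43%). Without 1 steer it gave 0 to 2 (1 without casein replicate 3 and 2 without control replicate 2, with 0.788% and 2.79% of all genes called). Casein + GLP-2 against casein gave 3 with DESeq2 (5.91%) and 3 with DESeq2 and the block (4.61%). Both comparisons gave 0 in edgeR with all steers. The counts of the other comparisons of the 10 genes stayed at 0 in every setting run. In those comparisons DESeq2, with or without the block, called from 0% to 0.0795% of all genes.

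Of the pathway and response genes, 2 were higher in edgeR, where 5.13% of all genes were. The number was 1 without the filter (2.49% of all genes higher), with the length correction (4.34%) or with the other factor (4.57%). It was 0 with the block and length correction, either score or without the 4 libraries, where 0% of all genes were higher. At 0.01 it was 0, and no gene reached that level. It was 9 and 10 in limma with FPKM + 1 and + 0.1 (8.69% and 8.22%), 13 in DESeq2 (9.18%), 16 in DESeq2 with the block (12%) and 18 at 0.10. Without 1 steer it was 1 to 21 (21 without control replicate 2, where 12% of all genes were higher, 11 without casein replicate 6, 9.17%, and 8 without GLP-2 replicate 4, 7.08%). The number lower was 6, where 1166 of all 13928 genes were lower. It was 0 with the replicate block (338 of all genes). It was also 0 with the block and length correction, either score, without the 4 libraries or at 0.01, where 0 of all genes were lower. It was 10 in DESeq2 with the block (1545 of all 13928 genes) and 10 at 0.10. Without 1 steer it was 0 to 10 (0 without casein + GLP-2 replicate 3, 1 without control replicate 1 or 3, 10 without control replicate 2 or 4). No share over all genes is given for the counts at 0.10, for the lower counts without 1 steer, or for the other higher counts without 1 steer.

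Signs that turned between GLP-2 and BSA were those of PIK3CA (log2 0.16 with the follicle score, 0.24 with the epithelial score, 0.077 without the 4 libraries, -0.24 to 0.0077 without 1 steer), BCL6 (0.30) and SH2B2 (0.049, both with the follicle score), and IRS1 (-0.043 to 0.35 without 1 steer). Between casein and water, the sign turned with the follicle score for EGFR (-0.014), ERBB2 (-0.056), ERBB3 (-0.0097), IRS1 (0.028) and IRS2 (-0.13), and without the 4 libraries for INSR (-0.068), IRS1 (0.20), IRS2 (-0.10) and PIK3CA (-0.078). With the block it turned for IGF1R (0.056), IRS1 (0.028) and PIK3CA (-0.014), with the block and length correction for IGF1R (0.017), IRS1 (0.0088), IRS2 (-0.010) and PIK3CA (-0.045), and in DESeq2 with the block for IGF1R (0.052), IRS1 (0.030) and PIK3CA (-0.013). It turned in limma for IGF1R (0.0095 with FPKM + 1 and 0.012 with FPKM + 0.1), IRS2 (-0.048 and -0.17) and PDPK1 (0.078 and 0.13), with the epithelial score for IRS1 (0.023) and IRS2 (-0.050), and for IRS2 also with upper quartile normalization (-0.0029), the length correction (-0.026) and the other factor (-0.10). Without 1 steer, values ran from -0.19 to 0.20 for IGF1R, -0.26 to 0.15 for IRS1, -0.15 to 0.14 for IRS2, -0.24 to 0.056 for PDPK1 and -0.11 to 0.14 for PIK3CA. The setting without the 4 libraries and DESeq2 with the block were chosen after seeing the data. IGF1R, IRS1 and IRS2 have no value where at least 10 counts in every steer were required, and rest on few counts in single steers.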
